A study of Mus musculus with 12 samples.

Results

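The cytochrome P450 enzymes of families 1, 2 and 3 were followed in mouse liver through 42 genes, out of 27735 genes and unnamed probes that were measured. A gene was taken as a member when a probe carried its name in the array files as Cyp1, Cyp2 or Cyp3 followed by a subfamily letter and a number, whatever its level; 1 family 2 gene was left out. The 42 genes had 64 of the 41174 non-control probes, each 60 bases long, and comprised 3 Cyp1, 3 Cyp2a, 3 Cyp2b, 11 Cyp2c, 5 Cyp2d, 5 Cyp2j and 6 Cyp3a genes and 6 genes of other Cyp2 subfamilies. All 42 were well above background on all 12 arrays with the probe that stood for the gene, so none was lost to the filter on dim probes.

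P450 enzymes of these families sit in the endoplasmic reticulum of hepatocytes, take electrons from P450 oxidoreductase (Por) and oxidise drugs, plant and food chemicals, steroids, bile acids and fatty acids. Their genes are turned on by sensors of foreign chemicals: the aryl hydrocarbon receptor (AHR) acts on family 1, the constitutive androstane receptor (CAR, Nr1i3) chiefly on Cyp2b, and the pregnane X receptor (PXR, Nr1i2) chiefly on Cyp3a. Glucocorticoids bind the glucocorticoid receptor (Nr3c1), and dexamethasone at high dose also binds PXR in the mouse. Hes1 encodes a transcriptional repressor best known as a target of Notch signalling, and HES proteins can bind DNA at N-boxes.

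The livers came from 12 male C57BL/6 mice 8 to 10 weeks old. All mice were adrenalectomized, which removes the main source of their own glucocorticoids. The 4 groups, each of 3 mice, were HESKOL mice with dexamethasone (1 mg/kg into the peritoneum, liver taken after 6 hours), untreated HESKOL mice, wild-type (WT) mice with the same dexamethasone treatment, and untreated WT mice. The labels do not spell out HESKOL, do not say which part of a gene was altered or which promoter drove a recombinase, and describe no vehicle injection. Levels below are log2 signals of a probe relative to the 75th percentile of its own array, and changes are differences of these levels with their standard error (SE). Levels of different probes are not comparable, because probes differ in brightness.

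Hes1 averaged -3.32 ± 0.47 in HESKOL and -2.22 ± 0.93 in WT livers after dexamethasone, and -2.65 ± 0.38 in HESKOL and -1.53 ± 0.34 in WT livers without it (SD, n = 3). HESKOL livers thus had 46.6% and 46.0% of the WT signal, with no overlap of the groups, an exact two-sided permutation p of 0.1 each, the smallest that 3 against 3 arrays allow, and limma adjusted p-values of 0.247 and 1.00. Whether the probe lies in the altered part of the gene is not stated. On single arrays 61.5% to 71.9% of probes exceeded background, and WT dexamethasone replicate 1 stood apart from its group, with a root mean square deviation of 0.995 log2 units against 0.463 to 0.799 in the other 11 arrays. The arrays lay on 3 slides of 4, and no slide held treated and untreated livers of 1 genotype. The genotypes after treatment met only on the slide that held WT dexamethasone replicate 3 with the 3 treated HESKOL livers, and the untreated genotypes only on the slide of the 3 WT livers and HESKOL untreated replicate 1. With slide as a fixed block, a genotype difference is the difference within the shared slide, given below as the within-slide value, and a dexamethasone change is pieced together from slides that hold the other genotype too.

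Dexamethasone lowered 5 of the 42 genes in HESKOL liver, namely Cyp1a2, Cyp2c54, Cyp2c55, Cyp2c70 and Cyp2r1, and raised 1, Cyp1b1 (adjusted p under 0.05, limma). Over all 18677 features tested, 4.21% were called lower and 3.66% higher in the same comparison. In WT liver no member passed, where 0.193% of all features did; 3 members had an unadjusted p under 0.05 (11.7% of all features). Among treated livers, 3 members were lower in HESKOL than in WT, namely Cyp1a2, Cyp2c55 and Cyp2c70 (0.412% of all features were called lower), and none was called higher (0.643% of all features). Among untreated livers no member was called, nor was any other feature (0.0%), and 2 members had an unadjusted p under 0.05 (1.57% of all features).

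**Figure D1:**
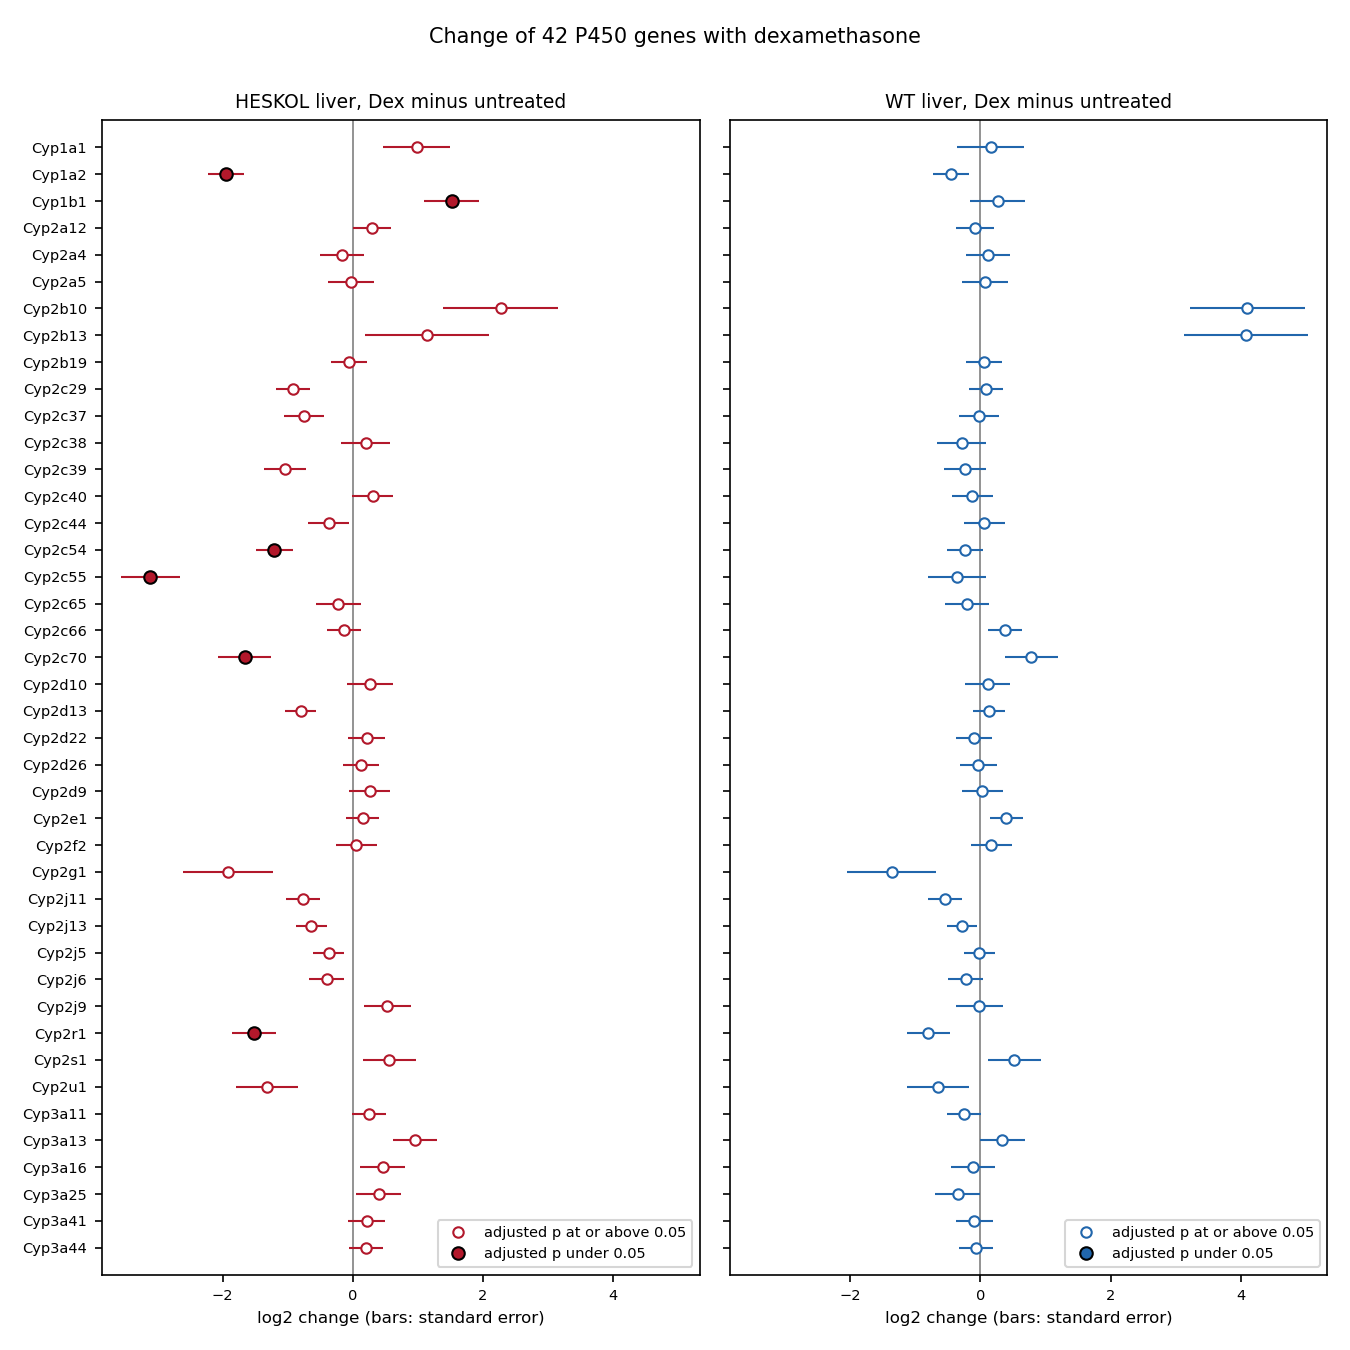
Log2 change with dexamethasone (treated minus untreated livers, 3 mice a group) of each of the 42 genes, with bars for the standard error, in HESKOL livers on the left and WT livers on the right. Filled points have an adjusted p under 0.05; there are 6 on the left, from -3.11 for Cyp2c55 to 1.52 for Cyp1b1, and none on the right, where Cyp2b10 and Cyp2b13 lie farthest out at 4.10 and 4.08.

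The set as a whole was centred near 0. The median change of the 42 genes with dexamethasone was 0.02 in HESKOL liver and -0.03 in WT liver, beside medians of -0.00 and -0.02 over all features tested. Changes were positive for 21 and negative for 21 genes in HESKOL, and positive for 18 and negative for 24 in WT. Changes of more than 1 log2 unit in either direction were seen for 11 of the 42 genes in HESKOL (16.6% of all features) and 3 in WT (8.43% of all features). Treated and untreated livers did not overlap for 3 genes on the high side and 13 on the low side in HESKOL, where 15.6% and 18.7% of all features were so separated. In WT they did not overlap for 3 genes on the high side and 0 on the low side, against 6.17% and 5.89% of all features. At an unadjusted p under 0.05, 16 members passed in HESKOL (24.7% of all features).

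The groups were spread unevenly over the slides. With slide as a fixed block, limma called none of the 42 genes in any of the 7 comparisons. Over all 18677 features it called 3 between treated genotypes, 2 for the averaged genotype difference and 0 in the other comparisons. In each comparison 1 to 8 of the 42 genes had an unadjusted limma p under 0.05, a count for which no share over all features was taken. In HESKOL the blocked changes with dexamethasone were -1.94 for Cyp1a2, -2.33 for Cyp2c55, -1.93 for Cyp2c70, -1.16 for Cyp2c54, -0.99 for Cyp2r1 and 0.00 for Cyp1b1, with limma adjusted p-values from 0.61 to 1.00. The signs of the 5 falls were kept, and the SEs were larger than without the block, at 0.52 for Cyp1a2 and 0.83 for Cyp2c55. Averaged over the genotypes the blocked changes were 2.87 for Cyp2b10, 2.79 for Cyp2b13 and -0.07 for Cyp2j11. The part of slide in the changes was not tested further.

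**Figure D2:**
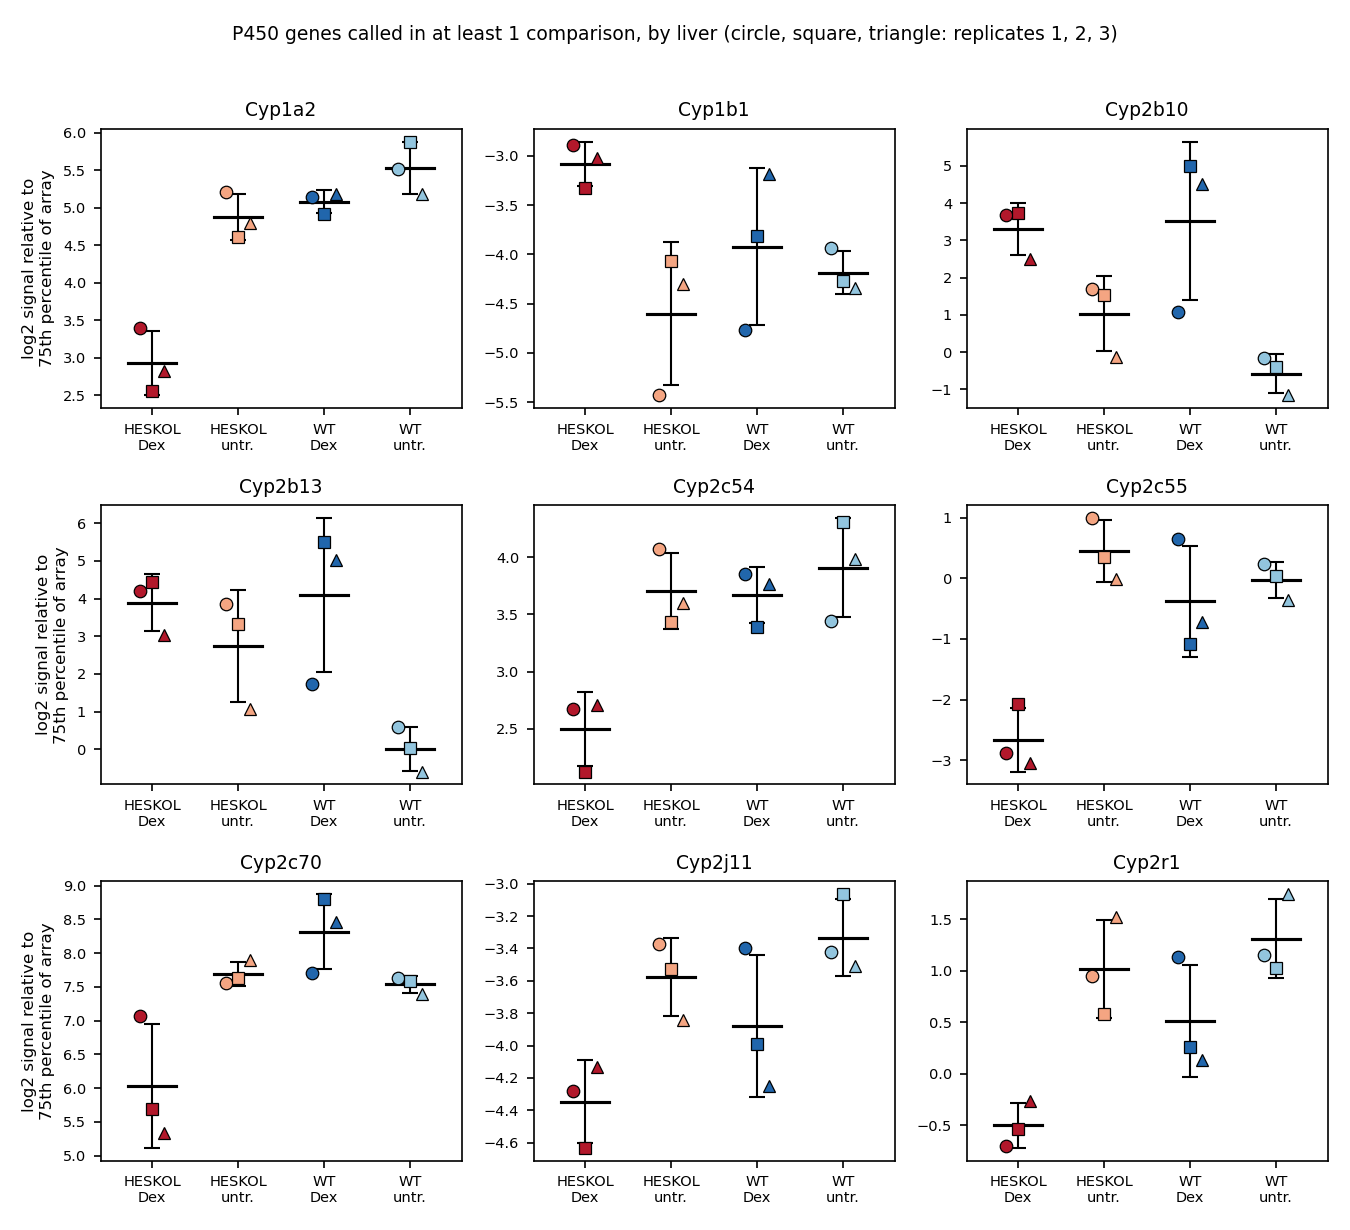
Level of the 9 genes called in any comparison, as log2 signal relative to the 75th percentile of the array, in HESKOL dexamethasone, HESKOL untreated, WT dexamethasone and WT untreated livers from left to right. Each point is 1 liver (circle, square and triangle for replicates 1, 2 and 3), the black line is the mean and the bar the SD of 3 livers; for Cyp1a2, Cyp2c54, Cyp2c55, Cyp2c70 and Cyp2r1 all 3 treated HESKOL livers lie below all 9 others.

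Cyp1a2, the constitutive family 1 enzyme of hepatocytes, which oxidises caffeine and aromatic amines and is an AHR target, was the member with the lowest adjusted p with dexamethasone in HESKOL. The probe that stood for it lay at chr9:57707919-57707978 on the minus strand of mm7, the genome build of the array design. A second probe covered chr9:57708722-57709371 on the same strand, 650 genomic bases for a probe of 60, and it is shown because such a junction probe joins exons and reads spliced RNA. The 250 bases before the RefSeq start of Cyp1a2, chr9:57683656-57683905 on the minus strand of GRCm38.p6, follow it, with a TATA box (TATAAA) 29 bases before the start in capitals, since its fall was kept whichever array was left out.
Cyp1a2 junction probe: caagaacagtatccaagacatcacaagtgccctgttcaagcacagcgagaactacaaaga
Cyp1a2 upstream: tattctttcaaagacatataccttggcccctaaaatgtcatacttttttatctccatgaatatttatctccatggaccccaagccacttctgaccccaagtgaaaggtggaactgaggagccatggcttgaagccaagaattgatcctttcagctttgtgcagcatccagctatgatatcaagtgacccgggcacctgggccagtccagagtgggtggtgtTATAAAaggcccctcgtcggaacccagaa

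Cyp1a2 levels were 3.39, 2.55 and 2.82 in treated HESKOL livers, against 5.21, 4.61 and 4.80 in untreated HESKOL livers. In WT they were 5.15, 4.91 and 5.19 with dexamethasone, against 5.52, 5.88 and 5.19 without it. The 3 treated HESKOL livers were the lowest of the 12 and did not overlap any other group, while treated and untreated WT livers overlapped. Dexamethasone lowered Cyp1a2 by 3.86-fold in HESKOL (log2 change -1.95, SE 0.27, limma adjusted p = 0.0039). In WT the change was -0.45 (SE 0.27, limma adjusted p = 0.563). Among treated livers HESKOL was 4.47-fold lower than WT (log2 difference -2.16, SE 0.27, limma adjusted p = 0.00616). Within the shared slide the difference was -2.27. Both calls were kept whichever single array was left out. The junction probe gave 2.70, 1.69 and 1.95 in treated HESKOL livers, against 4.49, 4.17 and 4.56 in treated WT livers. Its changes were -1.93 with dexamethasone in HESKOL and -2.29 between the treated genotypes (limma adjusted p = 0.00662 and 0.00778), so both probes moved alike.

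Averaged over both treatments, Cyp1a2 was the 1 member that differed between genotypes, lower in HESKOL by 1.41 log2 units (log2 difference -1.41, SE 0.19, limma adjusted p = 0.0185). In that comparison of 6 HESKOL with 6 WT livers, 0.107% of all features were called lower and 0.139% higher. The call was lost without any 1 of WT untreated replicates 1 and 2, HESKOL untreated replicate 2 and HESKOL dexamethasone replicates 2 and 3, with adjusted p between 0.0523 and 0.0652. Untreated HESKOL livers were 0.66 below untreated WT livers (SE 0.27), with overlapping values and a limma adjusted p of 1.00.

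Cyp1b1, an AHR-inducible enzyme that hydroxylates oestradiol and is expressed mostly outside hepatocytes, was the 1 member called higher with dexamethasone in HESKOL. Its levels were -2.89, -3.33 and -3.02 in treated HESKOL livers, against -5.43, -4.07 and -4.30 in untreated HESKOL livers. The groups did not overlap, although untreated replicate 1 lay more than 1 log2 unit below the other two. In WT the levels were -4.76, -3.81 and -3.18 with dexamethasone, against -3.94, -4.27 and -4.34 without it, and they overlapped. The rise in HESKOL was 2.87-fold (log2 change 1.52, SE 0.42, limma adjusted p = 0.0497), at the edge of the threshold. It was lost without any 1 array other than WT dexamethasone replicates 1 and 3, with adjusted p between 0.0626 and 0.167, and with slide as a block the change was 0.00.

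Cyp1a1, the AHR-inducible enzyme that is normally low in unexposed liver, averaged -3.33 ± 0.46 in treated and -4.32 ± 0.93 in untreated HESKOL livers (SD, n = 3). It averaged -3.17 ± 0.82 in treated and -3.33 ± 0.54 in untreated WT livers (SD, n = 3). The changes of 0.98 (SE 0.52) and 0.16 (SE 0.52) had limma adjusted p-values of 0.268 and 0.94. The 3 family 1 genes therefore held both a called fall and a called rise within 1 comparison.

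The Cyp2b genes, whose expression is the classical readout of CAR, showed the largest positive changes among the members. Averaged over the genotypes, Cyp2b10 and Cyp2b13 were the 2 members called higher with dexamethasone, and 5 were called lower, namely Cyp1a2, Cyp2c54, Cyp2c55, Cyp2j11 and Cyp2r1. In that comparison of 6 treated with 6 untreated livers, 5.3% of all features were called higher and 6.44% lower. The averaged contrast uses the same arrays as the contrasts within each genotype and adds no sample to them.

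Cyp2b10, the phenobarbital-inducible enzyme, was read by a probe at chr7:22691069-22691128 and by a junction probe over chr7:22691430-22700100, both on the plus strand of mm7. The junction probe of Cyp2b13, an enzyme known to be higher in female than in male mouse liver, spans chr7:22986378-22992433 on the same strand, and its accession list also names Cyp2b10. These 2 probe sequences are shown because the reading of Cyp2b13 turns on which RNA its probes catch. After them come the 250 bases before the RefSeq start of Cyp2b10, chr7:25897408-25897657 on the plus strand of GRCm38.p6. Its capitals mark the AHR core GCGTG at -101 (on the reverse strand) and at -9, and a C/EBP site TTGCNNAA at -58, where -1 is the base before the start.
Cyp2b10 junction probe: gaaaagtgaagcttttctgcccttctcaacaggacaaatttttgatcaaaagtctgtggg
Cyp2b13 junction probe: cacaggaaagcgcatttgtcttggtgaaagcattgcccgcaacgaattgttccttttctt
Cyp2b10 upstream: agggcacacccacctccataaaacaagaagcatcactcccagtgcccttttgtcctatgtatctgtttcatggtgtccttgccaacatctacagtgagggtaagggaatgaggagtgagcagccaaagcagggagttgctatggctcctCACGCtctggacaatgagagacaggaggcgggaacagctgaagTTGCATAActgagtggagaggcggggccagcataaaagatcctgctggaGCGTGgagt

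Cyp2b10 levels were 3.68, 3.74 and 2.49 in treated HESKOL livers, against 1.69, 1.52 and -0.13 in untreated HESKOL livers. WT livers had levels of 1.08, 4.98 and 4.50 with dexamethasone, against -0.16, -0.41 and -1.17 without it. In both genotypes every treated liver lay above every untreated liver, and WT dexamethasone replicate 1 lay more than 3 log2 units below the other two of its group. Over both genotypes together Cyp2b10 was 9.12-fold higher with dexamethasone (log2 change 3.19, SE 0.63, limma adjusted p = 0.0119), and the call was kept whichever single array was left out. Within HESKOL the change was 2.28, or 4.85-fold (SE 0.88, limma adjusted p = 0.139). Within WT it was 4.10, or 17.2-fold (SE 0.88, limma adjusted p = 0.115). Without WT dexamethasone replicate 1 the changes were 2.28 in HESKOL and 5.32 in WT, with limma adjusted p-values of 0.0171 and 0.00218. The junction probe gave changes of 1.86 in HESKOL and 4.10 in WT, and 2.98 averaged (limma adjusted p = 0.0155).

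In untreated livers the genotypes were also separated for Cyp2b10, without passing the test. Untreated HESKOL livers were 1.60 log2 units above untreated WT livers (SE 0.88, limma adjusted p = 1.00), the groups did not overlap, and the within-slide value was 2.27. After dexamethasone the difference was -0.22 (SE 0.88). The difference between the dexamethasone effects was -1.82 (SE 1.25, limma adjusted p = 0.866), which does not separate the 2 genotypes. Among untreated livers the groups did not overlap for 3 members on the high side, namely Cyp2b10, Cyp2b13 and Cyp2c66, and 0 on the low side, against 4.1% and 2.27% of all features.

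**Figure D3:**
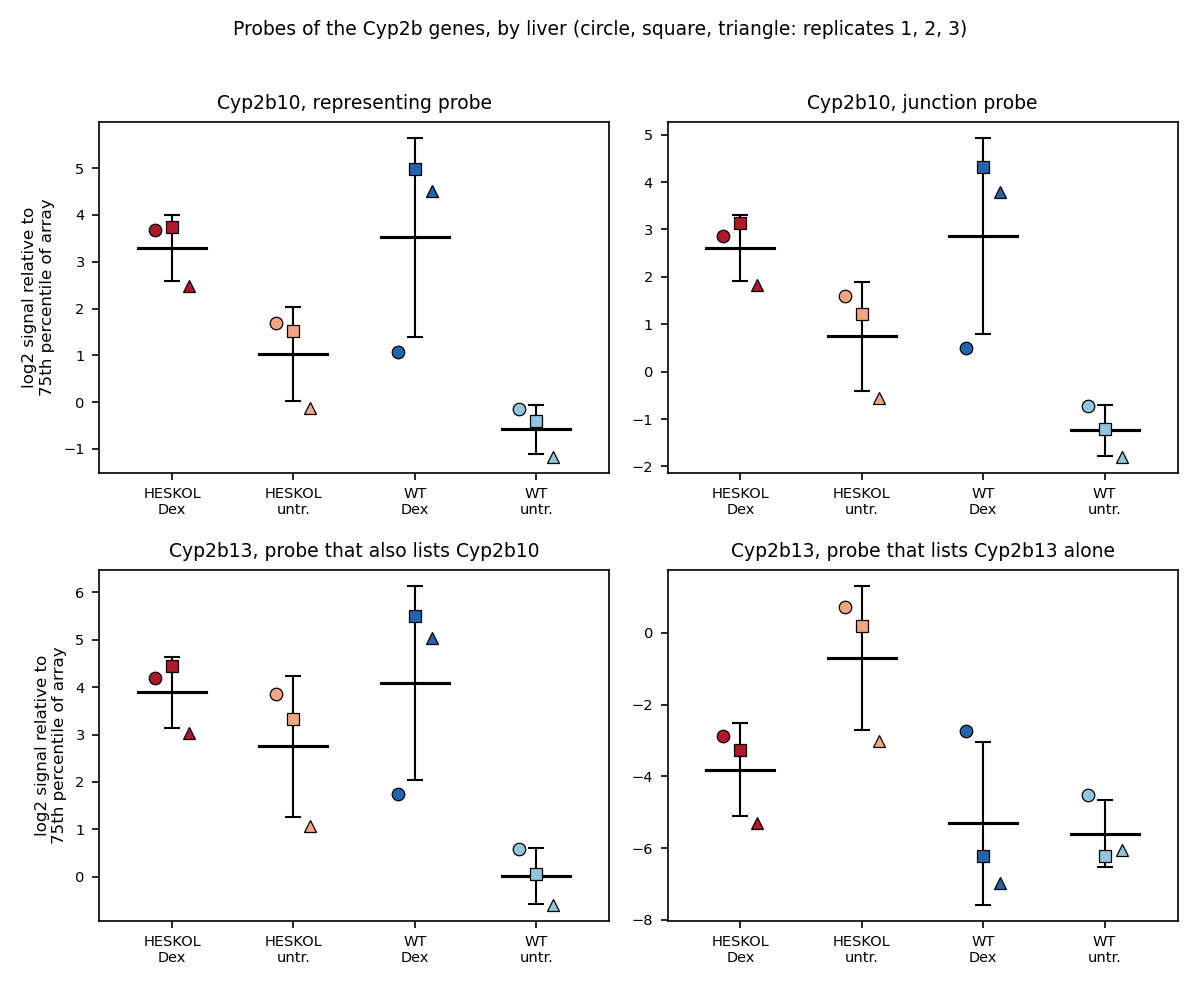
Level of 4 probes, 2 each of Cyp2b10 and Cyp2b13, as log2 signal relative to the 75th percentile of the array, in HESKOL dexamethasone, HESKOL untreated, WT dexamethasone and WT untreated livers from left to right. Points are livers (circle, square and triangle for replicates 1, 2 and 3), lines are means and bars SDs of 3 livers; the probe that lists Cyp2b13 alone is highest in untreated HESKOL livers, unlike the other 3 probes.

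Cyp2b13 depended on the probe. The junction probe, which stood for the gene and lists Cyp2b10 as well, read 4.20, 4.44 and 3.04 in treated HESKOL livers, against 3.86, 3.33 and 1.06 in untreated HESKOL livers. In WT it read 1.74, 5.51 and 5.03 with dexamethasone, against 0.59, 0.05 and -0.59 without it. As for Cyp2b10, untreated WT livers were the lowest, and WT dexamethasone replicate 1 was the lowest treated liver. Unlike for Cyp2b10, treated and untreated HESKOL livers overlapped, with a smaller change of 1.14 in HESKOL (SE 0.95). The averaged change was 2.61 (SE 0.67, limma adjusted p = 0.0315), and it was lost without any 1 array other than WT dexamethasone replicate 1, HESKOL untreated replicate 1 and HESKOL dexamethasone replicate 3, with adjusted p between 0.053 and 0.0761.

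The probe that lists Cyp2b13 alone, at chr7:22992625-22992684, read -2.89, -3.27 and -5.29 in treated HESKOL livers, against 0.72, 0.19 and -3.01 in untreated HESKOL livers. In WT it read -2.73, -6.21 and -6.98 with dexamethasone, against -4.51, -6.21 and -6.06 without it, and 1 of the treated WT arrays was not well above background. Untreated HESKOL livers were the highest group and WT livers of either treatment mostly the lowest, but untreated HESKOL replicate 3 overlapped treated HESKOL livers. Its averaged change with dexamethasone was -1.41 (SE 0.85, limma adjusted p = 0.311), opposite in sign to that of the junction probe. Among untreated livers HESKOL was 4.89 log2 units above WT (SE 1.20, limma adjusted p = 1.00). The rise called for Cyp2b13 is therefore that of a probe whose accession list names more than 1 Cyp2b gene. Cyp2b19, an epoxygenase of the skin, showed changes of -0.06 in HESKOL and 0.06 in WT (SE 0.28 each).

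The Cyp2c enzymes oxidise arachidonic and linoleic acid, retinoids, steroids and bile acids, and they held 3 of the 5 members called lower with dexamethasone in HESKOL. Over both genotypes together they held 2 of the 5 called lower. Of 11 Cyp2c genes, 9 had a negative change with dexamethasone in HESKOL (median -0.75) and 3 were called lower. Of all 18677 features 9359 were negative there and 4.21% were called lower. In WT 7 of the 11 were negative (median -0.12) and none was called, where 9694 of all features were negative and 0.193% were called. Among treated livers 9 of the 11 were lower in HESKOL than in WT (median -0.74), and 2 were called. Of all features 8746 were lower there and 0.412% were called lower. These 3 comparisons share arrays, so their counts are not independent of each other.

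Cyp2c55, a hydroxylase of arachidonic acid that responds to CAR and PXR activators, had the largest fall. Its probe lies at chr19:38807081-38807140 on the plus strand of mm7. The 250 bases before its RefSeq start, chr19:39006769-39007018 on the plus strand of GRCm38.p6, and those of Cyp2c70, chr19:40187287-40187536 on the minus strand, are shown because these 2 genes differed most between the treated genotypes. Capitals mark the TATA box TATAAA at -29 in both, on the reverse strand in Cyp2c70, and in Cyp2c70 the nuclear receptor hexamer AGGTCA at -74.
Cyp2c55 upstream: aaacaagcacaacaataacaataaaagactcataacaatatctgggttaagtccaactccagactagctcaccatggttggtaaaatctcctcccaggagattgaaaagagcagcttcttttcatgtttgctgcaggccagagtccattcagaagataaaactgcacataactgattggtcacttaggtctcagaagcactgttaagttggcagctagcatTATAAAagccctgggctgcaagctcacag
Cyp2c70 upstream: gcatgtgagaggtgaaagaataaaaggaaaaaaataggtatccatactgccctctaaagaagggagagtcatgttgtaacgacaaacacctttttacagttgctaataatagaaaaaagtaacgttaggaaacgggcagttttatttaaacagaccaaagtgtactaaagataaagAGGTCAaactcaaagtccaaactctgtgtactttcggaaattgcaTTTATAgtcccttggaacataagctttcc

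Cyp2c55 levels were -2.88, -2.07 and -3.05 in treated HESKOL livers, against 1.00, 0.34 and -0.01 in untreated HESKOL livers. The levels in WT were 0.66, -1.09 and -0.72 with dexamethasone, against 0.23, 0.04 and -0.35 without it. The treated HESKOL livers were the lowest of the 12 without overlap, and the other 3 groups overlapped each other. Dexamethasone lowered Cyp2c55 by 8.63-fold in HESKOL (log2 change -3.11, SE 0.45, limma adjusted p = 0.00435), whichever single array was left out. In WT the change was -0.36 (SE 0.45, limma adjusted p = 0.813). Among treated livers HESKOL was 4.87-fold lower than WT (log2 difference -2.28, SE 0.45, limma adjusted p = 0.0425), and the within-slide value was -1.95. That call was kept only without WT dexamethasone replicate 1 or 2, and with adjusted p between 0.0506 and 0.117 it was lost without any 1 of the other 10 arrays. Averaged over the genotypes dexamethasone lowered it by 1.73 log2 units (log2 change -1.73, SE 0.32, limma adjusted p = 0.00866).

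Cyp2c70, which makes the muricholic acids that distinguish mouse from human bile, had changes of opposite sign in the 2 genotypes. Its levels were 7.07, 5.70 and 5.33 in treated HESKOL livers, against 7.56, 7.62 and 7.90 in untreated HESKOL livers. In WT they were 7.71, 8.80 and 8.45 with dexamethasone, against 7.63, 7.59 and 7.39 without it. Every treated HESKOL liver lay below every untreated one, every treated WT liver lay above every untreated one, and untreated livers of both genotypes were close together. The fall in HESKOL was 3.16-fold (log2 change -1.66, SE 0.41, limma adjusted p = 0.0344). The change in WT was 0.78 (SE 0.41, limma adjusted p = 0.497). Among treated livers HESKOL was 4.88-fold lower than WT (log2 difference -2.29, SE 0.41, limma adjusted p = 0.0319), and the within-slide value was -2.42. The difference between the dexamethasone effects, -2.44 (SE 0.58), had a limma adjusted p of 0.351. The call in HESKOL was lost without WT untreated replicate 2, without any 1 untreated HESKOL array or without HESKOL dexamethasone replicate 2 or 3 (adjusted p between 0.0548 and 0.12). The call between treated genotypes was lost without any 1 array other than WT untreated replicate 1, WT dexamethasone replicate 1, HESKOL untreated replicate 3 and HESKOL dexamethasone replicate 1 (adjusted p between 0.0509 and 0.147).

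Cyp2c54, an epoxygenase of linoleic and arachidonic acid, is shown by its junction probe, which spans chr19:39941403-39963984 on the minus strand of mm7 and lists no other RefSeq gene, because the Cyp2c genes lie close together and resemble each other.
Cyp2c54 junction probe: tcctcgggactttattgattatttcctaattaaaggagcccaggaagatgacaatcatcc
Its levels were 2.67, 2.13 and 2.71 in treated HESKOL livers, against 4.07, 3.43 and 3.60 in untreated HESKOL livers. WT livers had levels of 3.85, 3.39 and 3.77 with dexamethasone, against 3.44, 4.30 and 3.98 without it. The treated HESKOL livers were again the lowest 3 of the 12. The fall in HESKOL was 2.30-fold (log2 change -1.20, SE 0.28, limma adjusted p = 0.0285), while the change in WT was -0.24 (SE 0.28, limma adjusted p = 0.799). The call was lost without any 1 of the 6 HESKOL arrays (adjusted p between 0.0565 and 0.117). Over both genotypes together it was -0.72 (SE 0.20, limma adjusted p = 0.0413), a call kept only without WT untreated replicate 1 or WT dexamethasone replicate 1 (0.0588 to 0.0998 without any 1 of the others).

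Of the other Cyp2c genes, Cyp2c29, a CAR-responsive epoxygenase, came closest to the threshold. Its levels were 5.98, 5.83 and 6.38 in treated HESKOL livers, against 7.30, 6.50 and 7.13 in untreated HESKOL livers, and 7.16, 7.13 and 7.08 in treated WT livers, against 6.71, 7.18 and 7.23 in untreated WT livers. The treated HESKOL livers lay below all others, with a change of -0.92 in HESKOL (SE 0.26, limma adjusted p = 0.0526) and 0.08 in WT (SE 0.26). Cyp2c39, a retinoic acid hydroxylase, had changes of -1.04 in HESKOL and -0.24 in WT (SE 0.33, limma adjusted p = 0.0747 and 0.832). Cyp2c37 had changes of -0.75 and -0.02 (SE 0.31, limma adjusted p = 0.159 and 0.986). Without WT dexamethasone replicate 1, which lies in neither HESKOL group but adds to the shared spread, the Cyp2c29 fall in HESKOL had a limma adjusted p of 0.0399.

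With the probes that stood for them, the remaining Cyp2c genes showed little change. In HESKOL the changes with dexamethasone were 0.31 for Cyp2c40, 0.20 for Cyp2c38, -0.14 for Cyp2c66, -0.22 for Cyp2c65 and -0.37 for Cyp2c44, with SEs between 0.26 and 0.38. The changes in WT were -0.12, -0.29, 0.38, -0.21 and 0.06 in the same order of genes. A second probe of Cyp2c38, above background on all 12 arrays, gave changes of 0.49 in HESKOL and -0.68 in WT (SE 0.35 each). Among treated livers this probe was 1.42 higher in HESKOL than in WT (SE 0.35, limma adjusted p = 0.0841), without overlap. The probe that stood for Cyp2c38 gave 0.58 there, with overlap. Cyp2c44, now named Cyp2c23, is an arachidonic acid epoxygenase, and Cyp2c65 and Cyp2c66 are known mainly from the intestine. The probe that stood for Cyp2c40 also lists Cyp2c67 and Cyp2c68. No probe was named Cyp2c50.

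The Cyp2a and Cyp2d genes, which include the mouse coumarin hydroxylase Cyp2a5 and the testosterone hydroxylases Cyp2a4 and Cyp2d9, held no call. The 3 Cyp2a genes had changes with dexamethasone from -0.16 (Cyp2a4) to 0.29 (Cyp2a12) in HESKOL and from -0.08 (Cyp2a12) to 0.11 (Cyp2a4) in WT. Cyp2a5 averaged 7.85 ± 0.25 in treated and 7.88 ± 0.52 in untreated HESKOL livers, and 7.95 ± 0.59 in treated and 7.88 ± 0.39 in untreated WT livers (SD, n = 3). The probes of Cyp2a4 and Cyp2a5 share a run of 28 bases, so the 2 genes cannot be fully separated. Cyp2d9, Cyp2d10, Cyp2d22 and Cyp2d26 had changes of 0.13 to 0.27 in HESKOL and of -0.10 to 0.11 in WT, with SEs from 0.28 to 0.35. Cyp2d13 stood apart from them: it averaged 1.32 ± 0.03 in treated and 2.12 ± 0.31 in untreated HESKOL livers, and 2.44 ± 0.29 in treated and 2.32 ± 0.34 in untreated WT livers (SD, n = 3). Its change was -0.80 in HESKOL (SE 0.24, limma adjusted p = 0.0691) and its difference between treated genotypes -1.12 (limma adjusted p = 0.058). Both missed the threshold. The probe that stood for Cyp2d9 also lists Cyp2d22 and Cyp2d34, so Cyp2d9 and Cyp2d22 are not fully separate readings. Probes of Cyp2d22 lay up to 0.96 log2 units apart in the difference between the dexamethasone effects.

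Cyp2e1, which oxidises ethanol and acetone, and Cyp2f2, which activates naphthalene, showed no change that passed the test. Cyp2e1 averaged 7.59 ± 0.25 in treated and 7.44 ± 0.38 in untreated HESKOL livers, and 7.73 ± 0.26 in treated and 7.33 ± 0.24 in untreated WT livers (SD, n = 3). The change in WT, 0.39 (SE 0.25, limma adjusted p = 0.583), was its largest. Cyp2f2 had changes of 0.06 in HESKOL and 0.17 in WT (SE 0.32 each). Both are genes of opposite zones of the liver lobule, pericentral for Cyp2e1 and periportal for Cyp2f2.

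Cyp2r1, which hydroxylates vitamin D to its circulating form, fell with dexamethasone. Its probe lies at chr7:110466428-110466487 on the minus strand of mm7. Levels were -0.70, -0.54 and -0.27 in treated HESKOL livers, against 0.95, 0.58 and 1.52 in untreated HESKOL livers. In WT they were 1.14, 0.26 and 0.14 with dexamethasone, against 1.16, 1.03 and 1.75 without it. Treated and untreated HESKOL livers did not overlap, whereas in WT only treated replicate 1 reached the range of the untreated livers. Averaged over the genotypes the log2 change was -1.16 (SE 0.23, limma adjusted p = 0.0133), and the call was kept whichever single array was left out. Within HESKOL it was -1.52, a 2.87-fold fall (SE 0.33, limma adjusted p = 0.0219), and within WT -0.80 (SE 0.33, limma adjusted p = 0.384). The call in HESKOL was lost without HESKOL untreated replicate 1 or 3 or any 1 treated HESKOL array (adjusted p between 0.0507 and 0.0741). The difference between the treated genotypes was -1.01 (limma adjusted p = 0.172), with every treated HESKOL liver below every treated WT liver.

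Cyp2j11 belongs to the Cyp2j epoxygenases of fatty acids. Its levels were -4.28, -4.63 and -4.13 in treated HESKOL livers, against -3.37, -3.52 and -3.84 in untreated HESKOL livers, and -3.40, -3.99 and -4.25 in treated WT livers, against -3.42, -3.06 and -3.51 in untreated WT livers. The treated HESKOL livers lay below the untreated ones, and in WT the groups overlapped. The averaged change was -0.66 (SE 0.19, limma adjusted p = 0.0436), which stayed under the threshold only without WT dexamethasone replicate 1; without any 1 other array the adjusted p lay between 0.0505 and 0.104. The other Cyp2j genes had changes of -0.64 (Cyp2j13), -0.40 (Cyp2j6), -0.37 (Cyp2j5) and 0.53 (Cyp2j9) in HESKOL and of -0.28, -0.23, -0.02 and -0.01 in WT, and none passed.

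Cyp2g1, known mainly from the olfactory mucosa, read -2.03, -1.86 and -2.61 in treated HESKOL livers, against -0.68, -0.54 and 0.48 in untreated HESKOL livers. In WT it read 0.14, -2.24 and -3.00 with dexamethasone, against -0.66, -0.83 and 0.49 without it. The treated livers of both genotypes were low apart from WT dexamethasone replicate 1, which lay among the untreated livers. The averaged change was -1.64 (SE 0.49, limma adjusted p = 0.0516), and without that array it was -2.10 (limma adjusted p = 0.00178). Cyp2u1, a fatty acid hydroxylase, had changes of -1.31 in HESKOL and -0.66 in WT (SE 0.48, limma adjusted p = 0.117 and 0.638). Cyp2s1, an enzyme of epithelia, had changes of 0.56 and 0.52 (SE 0.41), and neither change passed.

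The Cyp3a enzymes, the main oxidisers of drugs and steroids and the classical PXR targets, made a low-amplitude group. Cyp3a11, the best known of them, was read by a junction probe, chr5:144750340-144752207 on the minus strand of mm7. It is shown because its accession list also names Cyp3a41a and Cyp3a44, so the 3 genes share its signal.
Cyp3a11 junction probe: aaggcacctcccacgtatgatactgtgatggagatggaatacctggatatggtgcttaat
Cyp3a11 levels were 7.56, 7.72 and 7.61 in treated HESKOL livers, against 7.35, 6.96 and 7.82 in untreated HESKOL livers. WT livers had levels of 7.13, 6.83 and 7.07 with dexamethasone, against 6.95, 7.73 and 7.12 without it. Treated and untreated livers overlapped in both genotypes, with changes of 0.25 in HESKOL and -0.26 in WT (SE 0.26, limma adjusted p = 0.598 and 0.758). Neither change passed the test at this dose and time. The 95% confidence intervals of the change ran from -0.33 to 0.83 in HESKOL and from -0.84 to 0.32 in WT.

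All 6 Cyp3a genes had positive changes with dexamethasone in HESKOL, from 0.21 (Cyp3a44) to 0.96 (Cyp3a13), and none passed. In WT 5 of 6 were negative, from -0.35 (Cyp3a25) to 0.34 (Cyp3a13). Cyp3a13 was the member of this group with non-overlapping livers in HESKOL, at 6.36, 6.44 and 5.77 with dexamethasone against 5.04, 5.04 and 5.61 without it (log2 change 0.96, SE 0.34, limma adjusted p = 0.11). Among treated livers all 6 were higher in HESKOL than in WT, by 0.34 to 0.89 (median 0.59). For 5 of them, Cyp3a11, Cyp3a16, Cyp3a25, Cyp3a41 and Cyp3a44, the 3 HESKOL livers lay above the 3 WT livers, with differences of 0.62, 0.56, 0.77, 0.48 and 0.34 and limma adjusted p-values from 0.287 to 0.576. The probe of Cyp3a11 also lists Cyp3a41a and Cyp3a44, while those standing for the other 4 list no other RefSeq gene. The probes of Cyp3a41 and Cyp3a44 nevertheless lie side by side on the minus strand of mm7, at chr5:144587472-144587531 and chr5:144587795-144587854. The 5 genes are therefore not 5 separate readings.

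**Figure D4:**
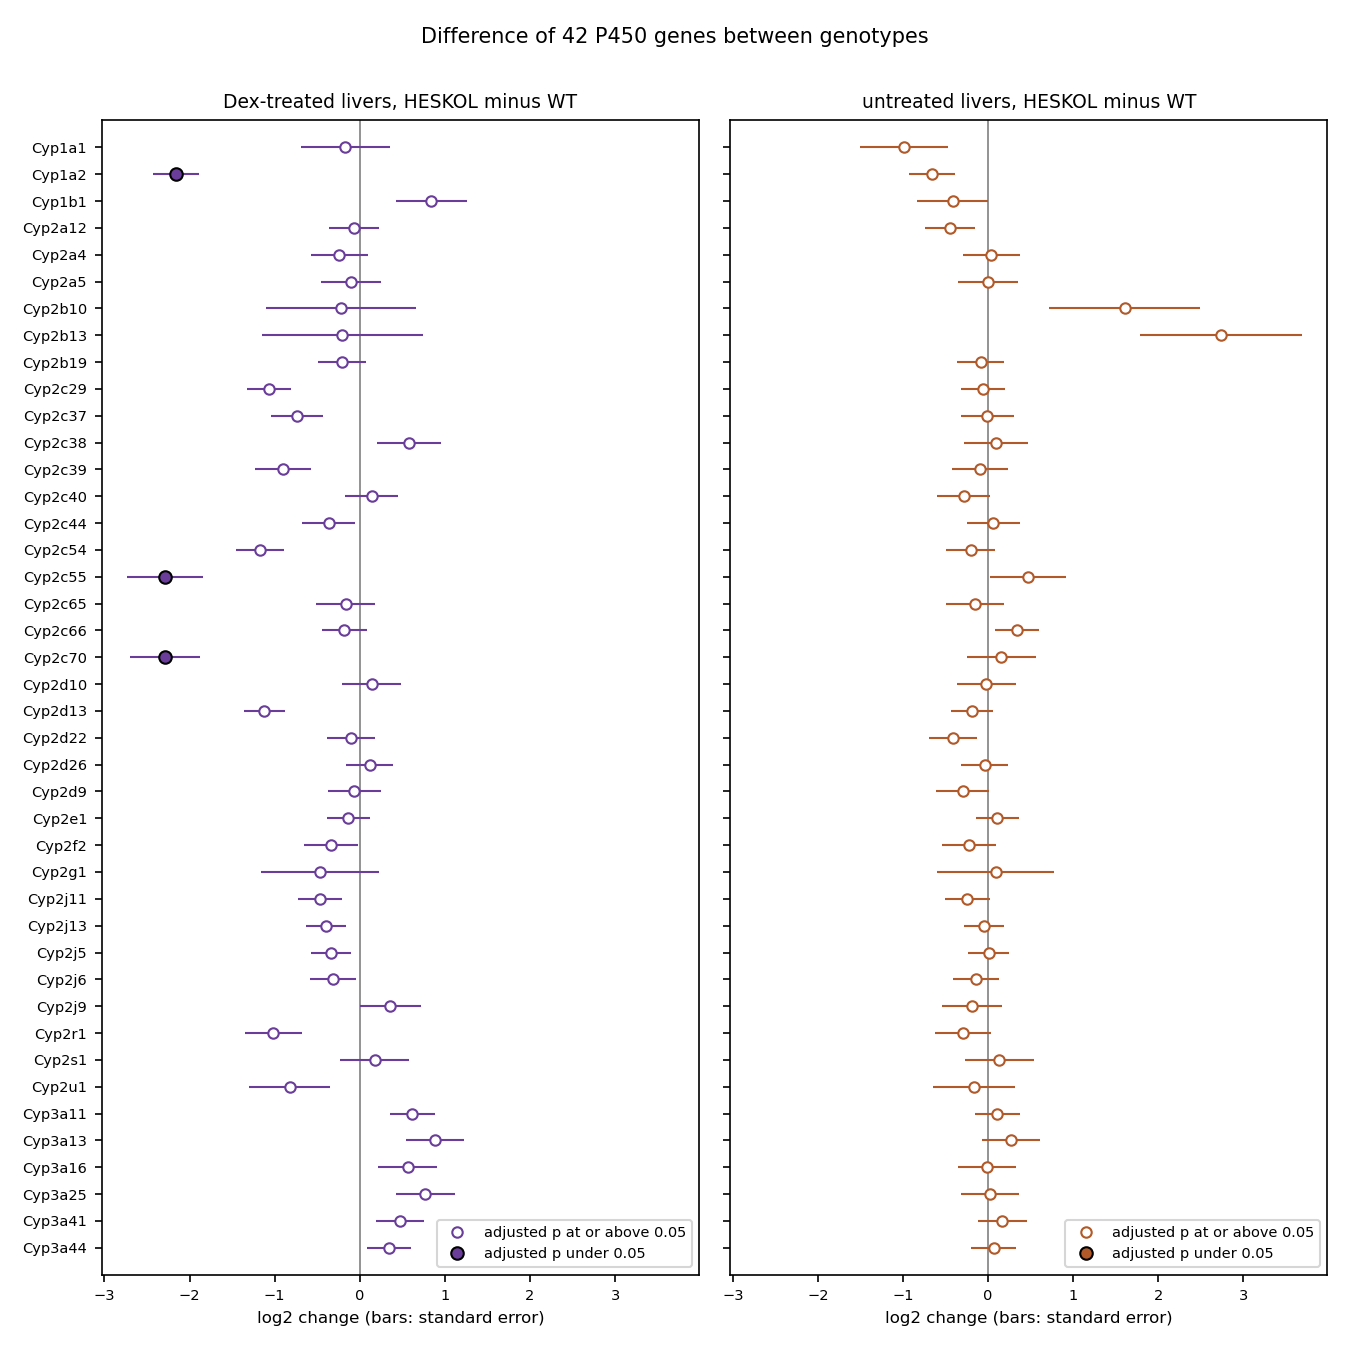
Log2 difference between genotypes (HESKOL minus WT, 3 mice a group) of each of the 42 genes, with bars for the standard error, in dexamethasone-treated livers on the left and untreated livers on the right. Filled points have an adjusted p under 0.05: 3 on the left, Cyp1a2, Cyp2c55 and Cyp2c70 between -2.29 and -2.16, and none on the right, where Cyp2b13 and Cyp2b10 lie highest.

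Over the whole set, the genotype difference in treated livers had a median of -0.19, against 0.04 over all features, with 29 of the 42 genes lower in HESKOL. The 5 Cyp3a genes just named were the members whose treated HESKOL livers lay wholly above the WT livers, and 11 members lay wholly below, where 10.5% and 7.78% of all features were so separated. At an unadjusted p under 0.05, 12 members passed (15.7% of all features). In untreated livers the median difference was -0.03, against 0.04 over all features, with 25 of the 42 lower in HESKOL. No member passed the test of the difference between the 2 dexamethasone effects by limma, in which 0.0161% of all features passed and 6 members had an unadjusted p under 0.05 (6.63% of all features). The smallest adjusted p-values in that test were 0.339 for Cyp2c55 (difference -2.75, SE 0.63), 0.351 for Cyp2c70 and 0.402 for Cyp1a2 (difference -1.50, SE 0.39). A call in HESKOL without one in WT is therefore not a tested difference between the genotypes for any of these genes.

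The counts depended on WT dexamethasone replicate 1. Without it, 13 members were called with dexamethasone in HESKOL, 3 higher and 10 lower, against 14.9% of all features, although no HESKOL array had changed. The additional 7 were Cyp2b10 and Cyp3a13 higher and Cyp2c29, Cyp2d13, Cyp2g1, Cyp2j11 and Cyp2u1 lower, with limma adjusted p-values from 0.016 to 0.0463. In WT 3 members were then called, Cyp2b10 and Cyp2b13 higher and Cyp2g1 lower (-2.29, limma adjusted p = 0.0243), where 5.97% of all features were called. Over both genotypes together 12 members were called, 4 higher and 8 lower, against 23.0% of all features.

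Known targets of the glucocorticoid receptor responded in both genotypes, and few regulators of P450 genes passed the test. All 15 listed targets had positive changes in both genotypes, with medians of 2.28 in HESKOL and 1.85 in WT; 10 were called higher in HESKOL and 4 in WT. Of 25 drug-sensing and liver regulators, 1 was called higher and none lower in HESKOL (median -0.17), and none was called in WT. The 1 was Ppargc1a, a coactivator of fasting metabolism, with a change of 3.40 in HESKOL (SE 0.33, limma adjusted p = 0.00101), 0.77 in WT (SE 0.33, limma adjusted p = 0.4) and a difference between treated genotypes of 2.98 (limma adjusted p = 0.00314). The receptor genes did not pass within a genotype. Ahr had changes of 0.86 in HESKOL and 1.62 in WT (SE 0.37), Nr1i2 of 0.69 and -0.23 (SE 0.42), Nr1i3 of -0.05 and -0.96 (SE 0.39) and Nr3c1 of -0.50 and -0.14 (SE 0.18). Averaged over the genotypes Ahr rose by 1.24 log2 units (SE 0.26, limma adjusted p = 0.0152), Cebpb rose by 0.96 (limma adjusted p = 0.0137) and Ahrr, the AHR repressor, fell by 0.86 (limma adjusted p = 0.0269).

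The machinery that serves P450s held few calls. Por had changes of 0.51 in HESKOL and 0.21 in WT (SE 0.27), and Alas1, the first enzyme of heme synthesis, of 0.64 and -0.99 (SE 0.33), none past the threshold. Of 15 genes of electron donors and heme metabolism, 1 was called higher and 2 lower in HESKOL and none in WT, with medians of 0.03 and -0.02. Cyb5b, a cytochrome b5, fell by 1.78 log2 units in HESKOL (log2 change -1.78, SE 0.27, limma adjusted p = 0.0048) and was lower by 1.32 in HESKOL than in WT livers after treatment (log2 difference -1.32, limma adjusted p = 0.047). Cyb5r3 fell by 1.26 in HESKOL (limma adjusted p = 0.0298), and Hmox2 rose by 0.98 (limma adjusted p = 0.0455).

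Other targets of AHR, CAR or PXR did not share 1 direction. Of 16 tested, 2 were called higher (Akr1b7 and Abcc2) and 1 lower (Abcb1a) in HESKOL, and none in WT, with medians of -0.14 and -0.22. Akr1b7, an aldo-keto reductase, rose by 2.98 in HESKOL (SE 0.51, limma adjusted p = 0.00865), and Abcb1a, a drug efflux pump, fell by 1.84 (limma adjusted p = 0.0372). Slco1a4, an uptake transporter of bile acids and drugs that responds to PXR, was higher in HESKOL than in WT livers after treatment by 2.82 (SE 0.37, limma adjusted p = 0.0081). Tiparp, an AHR target, rose by 2.39 averaged over the genotypes (SE 0.53, limma adjusted p = 0.0192).

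Zonal and sex-linked lists place the members in the liver. Of 11 pericentral genes 3 were called lower in HESKOL, Cyp1a2 itself, the Wnt target Axin2 (-1.47, limma adjusted p = 0.0382) and the receptor Lgr5 (-3.18, limma adjusted p = 0.0163), with a median of -0.02. Of 10 periportal genes 4 were called higher there and none lower, with a median of 0.79. Over all features 4.21% were called lower and 3.66% higher in that comparison. In WT no gene of either zonal list was called, with medians of -0.04 for pericentral and 0.07 for periportal genes. The part of zonation in these changes was not tested. Of 8 P450 genes known to be higher in female mice, 2 were called, both of them the Cyp2b genes in the averaged comparison, where 5.3% of all features were called higher. These 2 calls are not separate readings, because the probe that stood for Cyp2b13 also lists Cyp2b10. The probe that lists Cyp2b13 alone had an averaged change of -1.41. The median of the 8 genes in HESKOL was 0.38. Of 6 genes known to be higher in males none was called by limma in any comparison. With dexamethasone in HESKOL 2 of them had an unadjusted limma p under 0.05 (24.7% of all features). All 6 were lower in HESKOL than in WT, both among treated livers (median -0.78) and among untreated livers (median -0.26). Both zonal and both sex-linked lists overlap the members, and Pck1 is a listed periportal gene as well as a listed glucocorticoid receptor target.

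Markers of other cells differed between the groups too. All 6 hepatocyte markers on the array were above background on every array, with a summed signal, relative to the 75th percentile, of 1766 to 2464 in treated and 1473 to 2520 in untreated HESKOL livers and 1828 to 2363 in treated and 1551 to 2162 in untreated WT livers. The summed signal of 8 lymphocyte markers was 0.476 to 0.816 in treated and 1.54 to 2.62 in untreated HESKOL livers, and 0.422 to 1.61 in treated and 0.982 to 2.75 in untreated WT livers. That of 8 Kupffer cell markers was 69.4 to 179 in treated and 135 to 277 in untreated HESKOL livers, and 82.0 to 190 in treated and 117 to 199 in untreated WT livers. All 8 lymphocyte and all 8 Kupffer cell markers had negative changes in HESKOL, with medians of -1.14 and -0.88, and 1 of each was called lower. With slide as a fixed block those medians were 0.24 and -0.16. Adipocyte markers summed to 30.6 to 78.6 in treated and 5.67 to 8.17 in untreated HESKOL livers, and 14 to 23.2 in treated and 4.79 to 6.39 in untreated WT livers, and 2 of the 3 tested were called higher in HESKOL, while Lep was above background on no array. Of 8 endothelial markers 1 was called higher and 2 lower in HESKOL, and among the tested stellate cell, bile duct, neutrophil and erythroid markers limma called none there, with 2, 1, 0 and 0 at an unadjusted p under 0.05. All 4 tested neutrophil markers had negative changes in HESKOL, with a median of -2.32 (-1.42 with slide as a fixed block). Their sums were widely spread, at 2.17 to 34.2 in treated and 9.01 to 231 in untreated HESKOL livers. In WT livers they were 18.3 to 161 and 14.6 to 305. The summed signal of 5 intestine markers was 27.0 to 68.3 in treated and 9.43 to 24.8 in untreated HESKOL livers, and 19.2 to 22.0 in treated and 11.3 to 30.6 in untreated WT livers. All 3 of them that were tested had an unadjusted p under 0.05 in HESKOL, 1 with a positive and 2 with negative changes, and limma called none; Cdx2 was above background on no array. The sums of 5 pancreas markers on the array were 0.358 to 0.71 in treated and 0.422 to 0.914 in untreated HESKOL livers. In WT livers they were 0.345 to 0.816 with and 0.275 to 0.323 without treatment, so untreated WT livers were lowest. Amy2a5 and Pnlip were above background on no array. Of 5 kidney markers 4 were above background on no array. In these bulk samples fewer cells of a type and less RNA per cell cannot be told apart. The part of these markers in the P450 changes was not tested.

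RefSeq promoters of the GRCm38.p6 build matched 36 of the 42 genes, 33 of them with 1 promoter and 39 promoters in all. The 250 bases before each start were searched on both strands for 7 motifs, spelled here by their letters, and compared with the same window of 32841 mouse promoters. The TATA box TATAAA was in 51.3% of the member promoters and 12.4% of all promoters. These shares count the letters anywhere in the window, and some member matches lay far from the start, as at -234 in Cyp3a11. The nuclear receptor hexamer AGGTCA was in 28.2% and 14%, and the C/EBP site TTGCNNAA in 23.1% and 9.57%. The AHR core GCGTG was in 15.4% and 28.2%, and the N-box CACNAG in 35.9% and 36.7%. The glucocorticoid receptor hexamer AGAACA was in 20.5% and 16.1%. The full glucocorticoid response element, in which that hexamer and its reverse complement stand 3 bases apart, was in 0% and 0.00913%, and each of its matches is also a match of the hexamer.

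Among the called genes Cyp1a2, Cyp2c55 and Cyp2c70 carried the TATA box at -29. Cyp1b1 had the AHR core at -76 in chr17:79715062-79715311 on the minus strand, and Cyp2r1 an N-box at -44 in chr7:114562973-114563222 on the minus strand. Cyp2b13 had N-boxes at -134 and -50, the hexamer AGGTCA at -138 and the C/EBP site at -180, in chr7:26061245-26061494 on the plus strand. A match describes the letters of this window and is neither a binding site nor a cause of a change.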

How the data were processed

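Liver RNA of 12 mice was measured on one-colour Agilent arrays, 1 mouse per array, labelled with Cy3 from 500 ng of RNA, per the labels' protocols. The authors' deposited array files hold a processed signal per spot, a linear intensity from which background had been removed, which the software Agilent Feature Extraction wrote, in version 9.5.3.1 and on an mm7 design per the file headers, and in version 9.5 per the submitters' processing notes. The authors' deposited series table holds the same intensity values (ratio 1), linear and unscaled, with column medians from 53.7 to 112. Each array has 45018 spots, 1639 of them controls, and its 75th percentile of signal was 895.6 to 1616. The number of arrays, 3 a group, limits the precision.

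Here each intensity was taken to log2 and the 75th percentile of its array subtracted. Outlier spots were left out, spots of a probe averaged, and each gene was represented by its brightest probe on average over the 12 arrays. Accessions in the RefSeq gene table named 22951 of the non-control probes, and 9811 more were named by symbol or synonym. Of 27735 genes and unnamed probes, 18677 were tested, those that exceeded background on every array of 1 or more groups. Group means of all 12 arrays were fitted with limma 3.58.1 (lmFit and eBayes, 8 residual and 3.12 prior degrees of freedom) in R 4.3.3, with Benjamini-Hochberg adjustment over all tested features within each of 7 comparisons at a threshold of 0.05. Fits were tested on simulated data. Groups came from the sample titles. Replicate numbers did not pair the samples: same-numbered arrays had correlations of -0.40 to 0.62 (median -0.01, 18 pairs). The members and lists were chosen with earlier results of these data known. Members were named by a fixed list and wherever they passed the threshold, and genes outside the families only as regulators or as called genes of the lists. The alternatives were other scalings, background corrections, filters, probe choices, blocks, thresholds and fits, and each array left out in turn; 1 of them, the use of probes listing 1 RefSeq gene, was chosen after seeing the data. Some genes that the rule named are left out of the text.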

Additional observations from a re-analysis of the deposited data

Results flagged for a closer look

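Cyp2c70 had changes of opposite sign with dexamethasone in the 2 genotypes: every treated HESKOL liver was below every untreated HESKOL liver and every treated WT liver above every untreated WT liver. The change in HESKOL passed the test (-1.66, limma adjusted p = 0.0344), and that in WT did not (0.78, limma adjusted p = 0.497). The difference between the effects was -2.44 log2 units (SE 0.58), with a limma adjusted p of 0.351 in the interaction test, which it did not pass.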

How the results depend on the processing

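Counts of called members were 6 with dexamethasone in HESKOL, 3 between treated genotypes, 7 for averaged dexamethasone, 1 for averaged genotype and 0 in the other 3 comparisons. With dexamethasone in HESKOL they became 10 with quantile normalization, 3 with no filter, 2 at a threshold of 0.01 and 0 with slide as a fixed block. Between treated genotypes they became 5 with quantile normalization, 1 with normexp, 1 with the unscaled deposited table, 1 at 0.01, 0 with the slide block and 0 when those groups were fitted alone. For averaged dexamethasone they became 11 with the deposited table (1 higher, 10 lower), 2 at 0.01 and 0 with the slide block, and for averaged genotype 0 with the deposited table, at 0.01 and with the slide block. Leaving out 1 array gave 2 to 13 in HESKOL, 0 to 3 in WT, 1 to 3 between treated genotypes, 4 to 12 for averaged dexamethasone and 0 to 1 for averaged genotype. Over all features it gave 360 to 2799 calls in HESKOL, 11 to 1120 in WT and 33 to 456 between treated genotypes. For averaged dexamethasone it gave 1066 to 4315 and for averaged genotype 14 to 106. The replicate block, with numbers that did not pair the samples, gave 4, 2, 5 and 1 for the 4 comparisons with calls and 0 for the others. Over all features it gave 1495, 127, 2222 and 21 in those 4 comparisons. Slide as a random block gave 9, 4, 10 and 1, beside 2385, 289, 3151 and 46 over all features. Calls over all features moved as well. With dexamethasone in HESKOL they were 1470 of 18677, and 1687 with quantile normalization, 939 of 27735 with no filter and 2385 with the random block. Slide as a fixed block gave 0 there. Between treated genotypes they were 197, and 236 with quantile normalization, 106 with normexp and 389 with the deposited table. For averaged dexamethasone they were 2192, and 2501 with the deposited table.

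Of the 17 calls, 17 were kept under quantile normalization, 13 under median scaling, 12 under normexp, 11 with no filter and 10 with the deposited table. With probes listing 1 RefSeq gene, the averaged change of Cyp2b13 reversed to -1.41, as its shared probe then drops out. The median change of all features moved to -0.35 in WT with the unscaled table. Apart from the filter, the threshold, the probe choice and the fits on fewer arrays, the cause of these changes was not tested. All members were well above background on every array with the probes that stood for them, while the probe listing Cyp2b13 alone was not on 1 array. For 14 genes more than 1 probe was measured. With dexamethasone the probes had opposite signs for 2 of them in HESKOL and 2 in WT. Between genotypes they did so for 3 in treated and 5 in untreated livers.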

Other observations

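Of 26 tested genes of the other P450 families, 3 were called higher and 1 lower with dexamethasone in HESKOL, and none in WT by limma, where 0 had an unadjusted p under 0.05. Their median change in HESKOL was 0.44. Cyp4a14, a fatty acid omega-hydroxylase controlled by PPARalpha, read 8.22, 8.66 and 8.75 in treated HESKOL livers, against 7.0, 4.93 and 4.17 in untreated HESKOL livers, and 4.75, 3.18 and 5.68 in treated WT livers, against 2.34, 4.28 and 3.45 in untreated WT livers. The treated HESKOL livers were the highest 3 of the 12, with a change of 3.18 in HESKOL (SE 0.77, limma adjusted p = 0.0325) and a difference of 4.01 from treated WT livers (limma adjusted p = 0.04). Cyp4a10 and Cyp4x1 rose by 2.30 and 1.52 in HESKOL (limma adjusted p = 0.0239 and 0.032). Cyp4f14, which inactivates leukotrienes, fell by 1.96 in HESKOL (SE 0.37, limma adjusted p = 0.013) and was lower by 2.0 log2 units in treated HESKOL than in treated WT livers (log2 difference -2.0, limma adjusted p = 0.0359).

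Among other phase 1 enzymes, the flavin monooxygenase Fmo2 rose with dexamethasone in HESKOL (log2 change 2.86, SE 0.63, limma adjusted p = 0.0221). Aox3, an aldehyde oxidase, was lower in treated HESKOL than in treated WT livers (log2 difference -1.49, SE 0.28, limma adjusted p = 0.0372).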
